A study of Canis lupus familiaris with 8 samples.

Results

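BMP signalling was read from 8 genes in dog kidney epithelial monolayers held under static strain. The genes were the 4 inhibitor of DNA binding genes ID1, ID2, ID3 and ID4, the feedback genes SMAD6, SMAD9 and BAMBI, and the ligand gene BMP4. They were taken by name as targets or feedback genes of the pathway, and all 8 were among the 37952 genes of the deposited count table. All 8 also passed the filter on low counts, which left 14571 genes for testing. The cells were MDCK GII, an established line of polarised kidney epithelium, grown overnight on collagen-coated elastic silicone in serum-containing medium. In the stretch group, vacuum pulled the membrane under the monolayer to 18% equal strain in both directions of the plane for 2 hours, and the control group stayed unstrained, with 4 wells in each. The wells were technical quadruplicates of 1 line that were placed at random in different devices, so every error below measures the spread between wells and not between lines or animals. The study asked how force on E-cadherin reaches EGFR and ERK signalling, and the comparison here asks what the BMP response genes did in the same 2 hours.

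Bone morphogenetic proteins (BMPs) are secreted ligands that bring together type I and type II receptor kinases. The activated receptors phosphorylate SMAD1, SMAD5 and SMAD9, which join SMAD4, enter the nucleus and switch on target genes. The ID genes are among the fastest of these targets. ID proteins have a helix-loop-helix domain but no DNA-binding region, and they hold E proteins such as TCF3 and TCF12 away from DNA. The same signal induces its own brakes, among them the inhibitory SMADs and the decoy receptor BAMBI, which lacks a kinase domain. In the developing kidney, BMP7 and BMP4 guide nephron formation and branching of the collecting duct tree.

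Library totals ran from 27047358 to 32478887 counts. The epithelial identity of the wells was checked on markers, and all 6 epithelial markers examined (CDH1, EPCAM, KRT8, KRT18, PAX8 and CLDN4) were expressed, with a summed level of 4766 to 5348 CPM (normalised counts, CPM, scaled to library size) for control and 5048 to 5154 CPM for stretch. The summed level of 7 fibroblast markers ran from 1.80 to 4.22 CPM in the control group and from 2.92 to 3.88 CPM in the stretch group, nearly all of it PDGFRA, and COL1A2, COL3A1, LUM and DCN had 0 counts in every well. The 4 endothelial markers summed to 1.03 to 1.73 CPM (control) and 0.79 to 1.61 CPM (stretch). Of the 4 leukocyte markers, which summed to 0.498 to 0.698 CPM and 0.412 to 0.993 CPM, PTPRC, CD3E and ITGAM had 0 counts. In bulk RNA, fewer cells with a transcript and less of it per cell cannot be told apart.

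The 8 genes covered a wide range of levels at rest, and ID2 stood far above its relatives. Levels were compared between genes as normalised CPM per kilobase of exon, given as mean ± SD over the 4 control wells. ID2 was the most abundant at 127 ± 8.05, in the 95.3rd percentile of all tested genes. ID3 followed at 34.8 ± 1.14, BMP4 at 24.5 ± 3.65 and ID1 at 15.5 ± 2.58. The feedback genes were lower on this scale, with SMAD6 at 4.26 ± 0.509, SMAD9 at 3.10 ± 0.294 and BAMBI at 2.499 ± 0.786. ID4 was the lowest at 1.68 ± 0.37, in the 22.2nd percentile. From ID2 down to SMAD6, the lowest control well of each gene lay above the highest control well of the next. SMAD9 and BAMBI overlapped across control wells, as did BAMBI and ID4, so the order of these neighbours was not resolved. Stretch wells kept ID2 at the top with 141 ± 15.01 per kilobase and ID4 at the bottom with 1.41 ± 0.129.

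**Figure D1:**
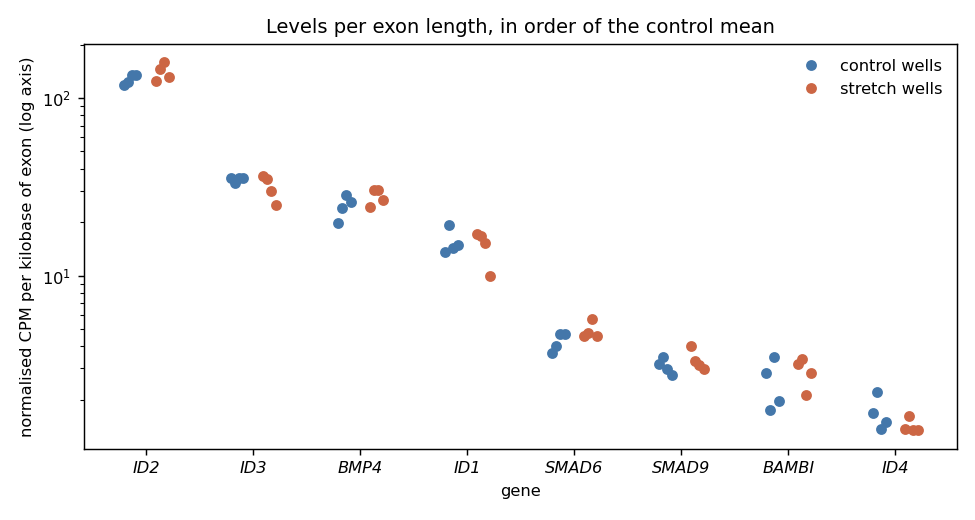
Normalised CPM per kilobase of exon (log axis) for each of the 8 genes, 1 point per well, control in blue and stretch in orange. ID2 sits at 118 to 159 in all 8 wells, while ID4 sits at 1.34 to 2.20.

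None of the 8 genes was called changed after 2 hours of strain. In edgeR's quasi-likelihood test without a block, 0 of 8 passed an adjusted p of 0.05 (the smallest adjusted p was 0.999), against a background of 0% of the 14571 genes tested. At an unadjusted p under 0.05, 0 of the 8 passed and 3.97% of all genes did. Limma-voom called 0 of the 8 and 0% of all genes, and DESeq2 called 0 of the 8 and 0.286% of the genes to which it gave an adjusted p. With the replicate number as a block, edgeR called 0.7% of all genes and again 0 of the 8. At an unadjusted p under 0.05, 3 of the 8 passed with this block, which were ID2, SMAD6 and BMP4, against 8.89% of all genes. A block of 2 levels, separating replicates 1 and 2 from replicates 3 and 4, called 0.398% of all genes and 0 of the 8.

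The estimates themselves were small. Without the block, 5 of the 8 genes had a higher mean after stretch (BMP4, ID2, SMAD6, SMAD9 and BAMBI) and 3 a lower one (ID1, ID3 and ID4). The median log2 change of the 8 was 0.13, beside -0.0032 for all genes tested, and the median size of the change regardless of sign was 0.16, beside 0.059. In none of the 8 genes did the control and stretch wells separate without overlap, whereas 2.55% of all genes did. The 95% interval of the fold change was narrowest for ID2, from 0.989 to 1.23, and widest for BAMBI, from 0.83 to 1.598. For ID1 the interval ran from 0.726 to 1.24. In the fits with and without the block, the interval of each of the 8 genes left out both a doubling and a halving.

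**Figure D2:**
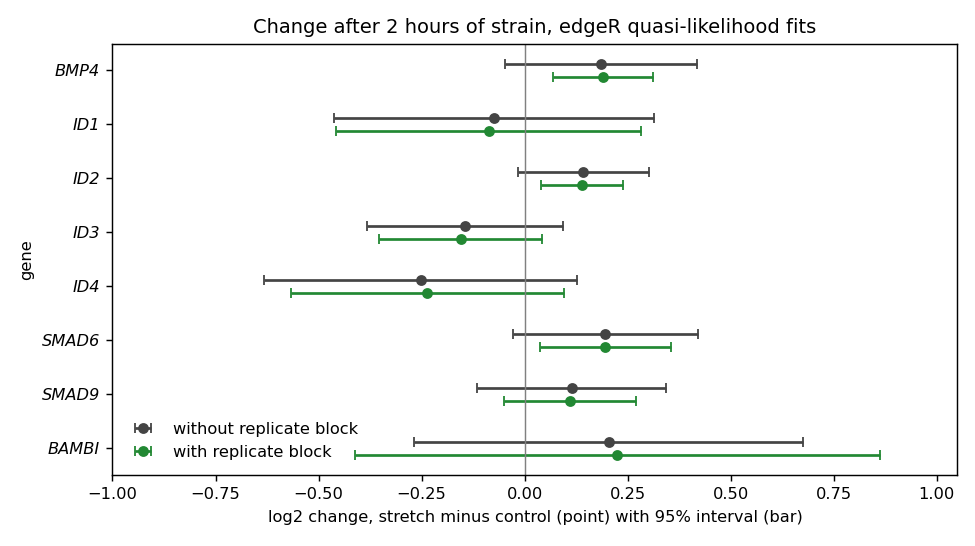
Log2 change from control to stretch (points) with its 95% interval (bars) for the 8 genes in edgeR, without the replicate block in grey and with it in green. Without the block all 8 intervals contain 0, and with it those of BMP4, ID2 and SMAD6 do not, although none of the 3 passes after adjustment over all genes.

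BMP4, the ligand gene on chromosome 8 (30299531 to 30306532, minus strand), had 974 to 1600 counts per well. Its control wells held 35.8, 43.5, 51.4 and 47.1 CPM for replicates 1 to 4, and its stretch wells held 44.3, 54.9, 54.9 and 48.2 CPM. Control replicate 1 was the lowest well, stretch replicates 2 and 3 lay above every control well, and the groups overlapped. BMP4 was the one gene of the 8 that was higher in the stretch well of all 4 same-numbered pairs, by 0.31, 0.33, 0.095 and 0.034 on the log2 scale. Its log2 change was 0.19 ± 0.11 (SE, n = 4 per group; edgeR, adjusted p = 0.999) without the block. With the block it was 0.19 ± 0.057 (edgeR, unadjusted p = 0.00403, adjusted p = 0.189). With the block of 2 levels it was 0.19 ± 0.092 (edgeR, unadjusted p = 0.065, adjusted p = 0.683). Without control replicate 1 and without a block the estimate was 0.098.

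ID1, the gene most often used as a readout of BMP activity, lies on chromosome 24 (21594218 to 21596151, plus strand). It measured 23.2, 33.0, 24.6 and 25.3 CPM in control replicates 1 to 4 and 29.5, 28.4, 26.1 and 17.0 CPM in stretch replicates 1 to 4. Control replicate 2 was the highest well and stretch replicate 4 the lowest, and the other six lay between 23.2 and 29.5 CPM. Its log2 change was -0.07 ± 0.17 (SE; edgeR, adjusted p = 0.999), and 2 of 4 pairs were higher. Without stretch replicate 4 the estimate was 0.081, and without control replicate 2 it was 0.052, so a single well set its sign.

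ID2, on chromosome 17 (5963701 to 5966127, plus strand), measured 154, 159, 175 and 174 CPM in control wells and 163, 190, 206 and 171 CPM in stretch wells. Stretch replicates 2 and 3 lay above every control well, and the other two stretch wells lay within the control range. ID2 had a log2 change of 0.14 ± 0.073 without the block (SE; edgeR, unadjusted p = 0.0743) and 0.14 ± 0.047 with it (edgeR, adjusted p = 0.285), with 3 of 4 pairs higher. With 4193 to 6019 counts per well, ID2 was the most deeply counted of the 8 genes, and its wells varied by 6.32% in control and 10.7% in stretch (coefficient of variation).

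ID3, on chromosome 2 (75274965 to 75276093, plus strand), had control wells closer together than those of any of the other 7 genes. They measured 17.2, 16.1, 17.2 and 17.1 CPM, a coefficient of variation of 3.28%, which is below the 4.58% that counting alone gives at its mean count. Its stretch wells measured 17.5, 17.0, 14.5 and 12.1 CPM, a coefficient of variation of 16.2%. Stretch replicates 3 and 4 lay below every control well, and stretch replicates 1 and 2 did not. The log2 change was -0.14 ± 0.11 (SE; edgeR, adjusted p = 0.999), and without stretch replicate 4 it was -0.043. ID3 overlaps LOC111093589 on the opposite strand, which had 10 to 19 counts per well against 391 to 551 for ID3. Its value is therefore uncertain by whatever reads the 2 genes share.

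ID4, on chromosome 35 (19757627 to 19760617, plus strand), was the weakest of the family, with 80 to 139 counts per well. Its control wells measured 3.45, 4.50, 2.78 and 3.05 CPM and its stretch wells 2.78, 3.29, 2.74 and 2.76 CPM. Control replicate 2 was the highest well, and 3 of the 4 stretch wells stood together near the lowest control well. The stretch well was the lower one in all 4 pairs, from -0.45 to -0.017 on the log2 scale. The log2 change of -0.25 ± 0.18 did not pass (SE; edgeR, adjusted p = 0.999), and at this depth counting alone gives a coefficient of variation of 10.3%. Without control replicate 2 the estimate was -0.093.

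**Figure D3:**
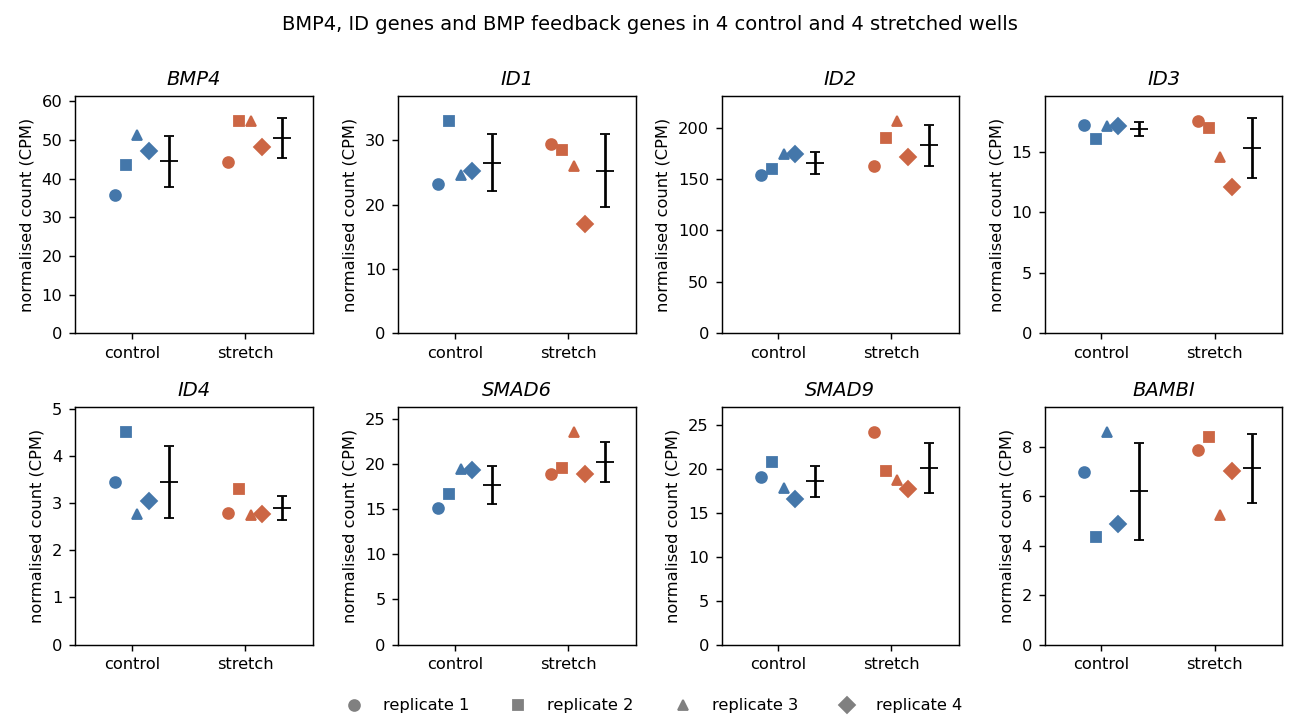
Normalised count (CPM) of each gene in every well, with the marker shape giving the replicate number and the black bar the mean ± SD of 4 wells. The groups overlap in all 8 genes; ID3 spreads from 12.1 to 17.5 CPM under stretch and from 16.1 to 17.2 CPM without it.

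The intracellular brake SMAD6, on chromosome 30 (31365990 to 31442355, plus strand), encodes a SMAD that blocks the receptors and the activated SMADs. It measured 15.1, 16.7, 19.5 and 19.3 CPM in control wells and 18.9, 19.6, 23.5 and 18.9 CPM in stretch wells. Control replicates 1 and 2 were the lowest wells and stretch replicate 3 the highest, with overlap between the groups. SMAD6 had a log2 change of 0.20 ± 0.10 unblocked and 0.20 ± 0.075 blocked (SE; edgeR, adjusted p = 0.999 and 0.398), and 3 of 4 pairs were higher. SMAD6 shares its locus with LOC119866923 on the same strand, which had 0 to 3 counts per well.

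SMAD9, on chromosome 25 (3833387 to 3909198, plus strand), encodes a receptor-activated SMAD that is itself a BMP target. Its control wells measured 19.1, 20.8, 17.9 and 16.6 CPM and its stretch wells 24.2, 19.8, 18.8 and 17.8 CPM. Stretch replicate 1 alone lay above the control range. Its log2 change was 0.11 ± 0.11 (SE; edgeR, adjusted p = 0.999), and 3 of 4 pairs were higher. Without stretch replicate 1 the estimate was 0.016. Its level also differed by replicate number, with 19.1 to 24.2 CPM in the wells of replicates 1 and 2 and 16.6 to 18.8 CPM in those of replicates 3 and 4.

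BAMBI, on chromosome 2 (15300265 to 15306392, minus strand), varied most from well to well. It measured 6.98, 4.37, 8.60 and 4.88 CPM in control wells and 7.86, 8.42, 5.25 and 7.01 CPM in stretch wells. The control wells spanned a range that contained all 4 stretch wells, and the pairs changed by 0.17, 0.95, -0.71 and 0.52 on the log2 scale. The variation between wells beyond counting error, as edgeR estimates it, was 20.5% for BAMBI without the block, in the 88.4th percentile of all genes. With the block it was 24.5%, in the 98.2nd percentile. The log2 change was 0.20 ± 0.22 (SE; edgeR, adjusted p = 0.999).

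The stretch estimates were also taken within the 2 sets of replicates, 1 and 2 against 3 and 4, since wells divide along that line. BMP4, ID2, SMAD6 and SMAD9 had positive estimates in both sets. BMP4 had 0.32 and 0.072, ID2 0.17 and 0.12, SMAD6 0.27 and 0.13, and SMAD9 0.14 and 0.087, on the log2 scale. ID4 was negative in both, at -0.40 and -0.077. ID1 (0.04 and -0.21), ID3 (0.055 and -0.36) and BAMBI (0.53 and -0.12) changed sign between the sets. The difference between the sets was tested as an interaction in edgeR, a test added after the data had been seen, and 0 of the 8 genes and 0% of all genes passed after adjustment. At an unadjusted p under 0.05, 1 of the 8 did, which was ID3 with a difference of -0.42 (edgeR, unadjusted p = 0.0166, adjusted p = 0.781), beside 5.72% of all genes.

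Across the 8 wells, ID2, SMAD6 and BMP4 followed one another closely. Of the 28 relations between the 8 genes, examined on log2 CPM after the data had been seen, 3 passed adjustment over the 28, and they were the 3 relations among these genes. ID2 and SMAD6 had the same order of wells (Pearson r = 0.92, exact permutation p = 0.00134, adjusted 0.0373; Spearman rho = 1, exact permutation p = 5e-05, the smallest these wells can give, adjusted 0.00139). ID2 and BMP4 had r = 0.89 (exact permutation p = 0.00357, adjusted 0.0373) and rho = 0.95 (exact permutation p = 0.00114, adjusted 0.0106). SMAD6 and BMP4 had r = 0.89 (exact permutation p = 0.00399, adjusted 0.0373) and rho = 0.95 (exact permutation p = 0.00114, adjusted 0.0106). Without the 2 wells farthest from the median of the first gene of each pair, r was 0.75, 0.95 and 0.72. After the mean of each group was subtracted, r was 0.88, 0.85 and 0.84. These permutations exchange all 8 wells freely. When the means of replicates 1 and 2 and of replicates 3 and 4 were removed instead and wells were exchanged only within those sets, a test added later, r was 0.89, 0.85 and 0.85 (exact permutation p = 0.00174, 0.00694 and 0.00347, adjusted over the 28 0.0486, 0.0648 and 0.0486), so the relation of ID2 to BMP4 no longer passed. That test left the difference between control and stretch wells in, and no p was computed with the set means and the group means both removed. Whether the 3 genes follow one another beyond these shared differences was therefore not tested. Over the 4 same-numbered pair differences, given as a description, r was 0.66, 0.42 and 0.67.

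All 3 of these genes were lowest in control replicate 1 and highest in stretch replicate 2 or 3. All values come from the same 8 libraries and share their scaling, and 4 wells in each set of replicates are too few for a separate coefficient. The relations of the other ID genes to ID2 did not pass, with r of -0.0076 for ID1, -0.26 for ID3 and -0.46 for ID4 (exact permutation p = 0.985, 0.532 and 0.256; adjusted 0.994, 0.881 and 0.773). ID1 and ID3 were both lowest in stretch replicate 4, and their r of 0.69 did not pass (exact permutation p = 0.0866, adjusted 0.606; rho = 0.12, exact permutation p = 0.793, adjusted 0.925). Without the 2 wells farthest from the median of ID1 it was 0.049, so it rested on those wells.

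**Figure D4:**
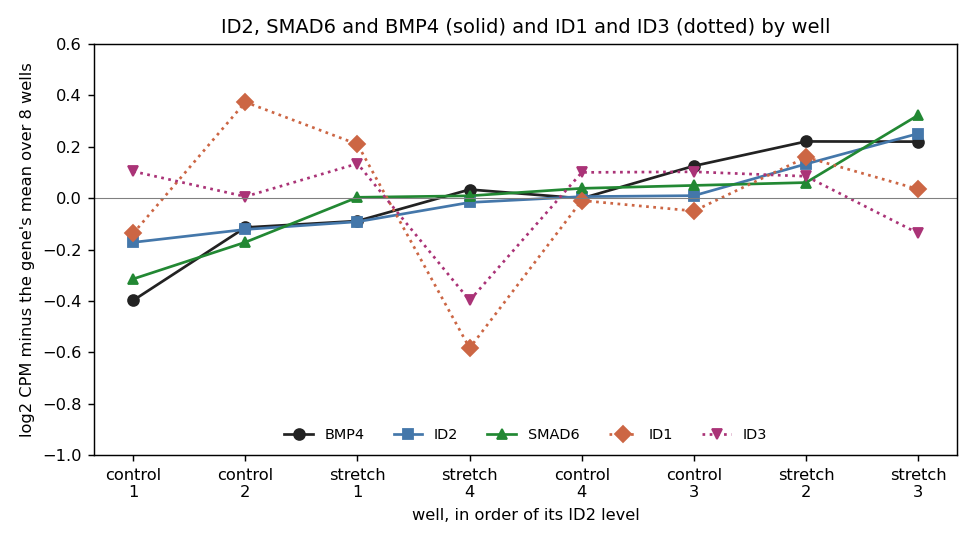
Log2 CPM of 5 genes in each well, minus the gene's mean over the 8 wells, with wells ordered by their ID2 level. ID2, SMAD6 and BMP4 (solid lines) go from their lowest values in control replicate 1 to high values in stretch replicates 2 and 3, while ID1 and ID3 (dotted lines) are lowest in stretch replicate 4.

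For each of the 8 genes, the 2 other tested genes with the most similar pattern of log2 CPM over the 8 wells were found among 14570, as a description with no test. The genes nearest to BMP4 were KLF10 and JUNB, which encode transcription factors of the early response to growth factors (r = 0.98 and 0.98, rho = 1 and 0.98). Their log2 changes without the block were 0.24 and 0.44, and neither passed with it on all 8 wells (edgeR, adjusted p = 0.216 and 0.722). KLF10 passed with the block in DESeq2 (adjusted p = 0.0393) and in edgeR without control or stretch replicate 3 (adjusted p = 0.0204 and 0.0219). ID2 was nearest to QSOX1 and CFAP97 (r = 0.98 each), and SMAD6 to C7H1orf116 and CHST4 (r = 0.98 each). ID1 was nearest to LOC611751 and MZT2B (r = 0.98 and 0.97), ID3 to LOC491817 and CTXN1 (r = 0.98 each), and ID4 to OTUD1 and KIZ (r = 0.97 each). SMAD9 was nearest to AIG1 and LOC119865174 (r = 0.97 and 0.96), and BAMBI to HARS1 and LOC102156864 (r = 0.95 and 0.94). With 8 wells many genes reach a high r. BMP4 had 82 genes and SMAD6 had 77 with r above 0.9, against 10 for BAMBI and 17 for ID1.

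The rest of the pathway was read from 83 further genes in 7 lists by role, of which 81 were in the table and 49 passed the count filter. In edgeR without the block, 0 of the 49 passed after adjustment and 6 had an unadjusted p under 0.05, beside 3.97% of all genes. With the replicate block, 2 of the 49 passed, both higher, beside 0.7% of all genes. They were FST and SNAI2. At an unadjusted p under 0.05, 13 of the 49 passed with the block, beside 8.89% of all genes. The number of calls with the replicate block depended on which wells were kept. It was 4 without the control well of replicate 3 (FST, SNAI2, HES1 and SKIL) and 6 without its stretch well (these 4, RGMB and NOG). Without either well of replicate 1 or of replicate 4 it was 1. With the block of 2 levels on all wells, 0 passed. The median log2 change of the 49 was -0.0022 without the block, beside -0.0032 for all genes.

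Few ligand genes were expressed. Besides BMP4, only BMP7, GDF6 and BMP2 of the 10 listed ligand genes in the table passed the count filter. In control wells, BMP7, a kidney differentiation factor, stood at 16.9 ± 5.55 CPM per kilobase, GDF6 at 2.69 ± 1.24 and BMP2 at 1.18 ± 0.096. BMP5, BMP6, BMP10, GDF2 and GDF5 had 0 counts in every well, where 3 counts would be 0.093 to 0.11 CPM. None of the 3 expressed ligands passed (log2 changes of -0.0042 for BMP7, 0.36 for GDF6 and 0.17 for BMP2; edgeR without the block, adjusted p = 0.999 each). GDF6 was higher in all 4 pairs. Its level ran from 4.95 to 6.66 CPM in 3 of the 4 wells of replicates 1 and 2, and stretch replicate 2 measured 10.4 CPM. In replicates 3 and 4 it ran from 10.6 to 14.0 CPM.

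Receptors of both types were present, and 0 of the 8 tested receptor and co-receptor genes passed in either direction in edgeR on all 8 wells. At an unadjusted p under 0.05 there were 3 without the block (RGMB, ACVR2A and NEO1), beside 3.97% of all genes, and 5 with it, beside 8.89%. RGMB, which encodes a membrane-anchored co-receptor that binds BMP2 and BMP4, had the largest fall among the 8 tested genes on the log2 scale. Its control wells measured 2.35, 3.85, 2.71 and 3.05 CPM and its stretch wells 1.75, 1.85, 1.54 and 1.61 CPM. Every stretch well lay below every control well. The log2 change was -0.83 ± 0.19 (SE; edgeR, adjusted p = 0.432), with an adjusted p of 0.0613 with the replicate block. DESeq2 without the block gave an adjusted p of 0.0421, and it gave none with the block. Without stretch replicate 3 and with the block, RGMB passed in edgeR (adjusted p = 0.0473). NEO1, which encodes neogenin, the receptor that RGM proteins bind, measured 29.3 ± 2.89 CPM in control and 33.6 ± 2.79 CPM in stretch wells (SD, n = 4; log2 change 0.20; edgeR, adjusted p = 0.999). The type II receptor gene ACVR2A measured 17.6 ± 1.78 and 20.6 ± 1.72 CPM (SD, n = 4; log2 change 0.22; edgeR, adjusted p = 0.999). The type I receptor gene BMPR1A was lower in all 4 pairs without overlap between the groups, by a small margin of -0.13 on the log2 scale (edgeR, adjusted p = 0.999).

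All 12 genes of SMAD signalling and SMAD turnover were tested, and 0 passed in edgeR with or without the block. The median log2 change of the 12 was -0.0027. The signal carriers had log2 changes of -0.055 for SMAD1, -0.0027 for SMAD5 and -0.08 for SMAD4. SMAD7, the second inhibitory SMAD, had a log2 change of 0.21 ± 0.15, similar in size to that of SMAD6, with 3 of 4 pairs higher (SE; edgeR, adjusted p = 0.999). PPP1R15A, a stress-inducible phosphatase subunit that SMAD7 brings to the type I receptor of TGF-beta, had the smallest p of the list. It measured 54.0, 52.0, 44.3 and 49.0 CPM in control wells and 62.5, 53.8, 62.1 and 55.4 CPM in stretch wells. PPP1R15A had a log2 change of 0.23 ± 0.074 (SE; edgeR, unadjusted p = 0.00858, adjusted p = 0.999). CTDSP1, a SMAD phosphatase gene, was lower in all 4 pairs (-0.11 on the log2 scale) without passing.

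Among 8 tested antagonist genes, 1 rose with the replicate block, and 0 passed without it (edgeR; 0 at an unadjusted p under 0.05). FST encodes follistatin, a secreted protein that binds activins and several BMPs. It measured 11.9, 17.6, 29.3 and 24.6 CPM in control wells and 17.7, 29.3, 39.6 and 34.3 CPM in stretch wells. The groups overlapped, and control replicates 1 and 2 lay below control replicates 3 and 4. In every same-numbered pair the stretch well was the higher one. The estimate was 0.53 ± 0.33 on the log2 scale without the block (SE; edgeR, adjusted p = 0.999) and 0.55 ± 0.066 with it (edgeR, adjusted p = 6.1e-04). With the block of 2 levels its adjusted p was 0.583 in edgeR. Noggin (NOG), with 18 to 83 counts per well, had a log2 change of 0.27 that did not pass. Without stretch replicate 3 and with the block it was 1.11 (edgeR, adjusted p = 0.0454). SOSTDC1 (8 to 22 counts) and NBL1 (9 to 32 counts) had low counts, with log2 changes of -0.60 and 0.20 without the block. SOSTDC1 was lower in every pair without overlap between the groups and did not pass (edgeR, unadjusted p = 0.0807, adjusted p = 0.999). GREM1, CHRDL2, SOST, DAND5 and CER1 had 0 counts.

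Of the other transcriptional targets of BMP signalling, 6 were tested. Of these, 0 passed without the block and 1, SNAI2, rose with it (edgeR). SNAI2, which encodes the transcription factor Slug, measured 6.90, 7.54, 13.3 and 8.93 CPM in control wells and 10.7, 16.4, 16.7 and 13.6 CPM in stretch wells. The estimate was 0.65 ± 0.21 on the log2 scale unblocked and 0.66 ± 0.11 blocked (SE; edgeR, adjusted p = 0.999 and 0.00823), and all 4 pairs were higher. With the block of 2 levels its adjusted p was 0.297, and without either well of replicate 1 or of replicate 4 it was 0.0747 to 0.079 with the replicate block (edgeR).

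ATOH8, a helix-loop-helix gene that BMP receptors induce directly in liver and endothelium, had a lower mean after stretch. It had low counts, 32 to 45 per control well against 16 to 23 per stretch well. Its levels were 1.21, 1.46, 1.08 and 1.09 CPM in control and 0.79, 0.739, 0.549 and 0.621 CPM in stretch wells, with no overlap. The log2 change of -0.84 ± 0.25 did not pass without or with the block (SE; edgeR, unadjusted p = 0.00464, adjusted p = 0.889 and 0.248). GATA2 was higher in all 4 pairs (0.15 on the log2 scale, edgeR, adjusted p = 0.999), and HES1 and MSX1 had log2 changes of 0.054 and 0.035. Without either well of replicate 3 and with the block, HES1 had a log2 change of 0.27 (edgeR, adjusted p = 0.0144 without the control well and 0.0112 without the stretch well).

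Of 9 tested nuclear cofactor genes 0 passed in edgeR on all 8 wells with or without the block, with log2 changes from -0.12 to 0.15. The 3 with the smallest p were the coactivator CREBBP (-0.10) and the corepressors SKIL (0.15) and TGIF1 (0.12). Without either well of replicate 3 and with the block, SKIL had a log2 change of 0.25 and passed (edgeR, adjusted p = 0.032 without the control well and 0.0298 without the stretch well). Of the E proteins and other partners, TCF3, TCF12 and HES6 were tested, with log2 changes of -0.094, -0.012 and 0.018 and 0 passing in either fit (edgeR; 0 at an unadjusted p under 0.05). Across all 49 genes, the groups did not overlap in 4, namely RGMB, ATOH8, SOSTDC1 and BMPR1A, all lower after stretch. These are 8.16% of the 49, beside 2.55% of all genes, and none of the 4 passed in edgeR on all 8 wells.

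**Figure D5:**
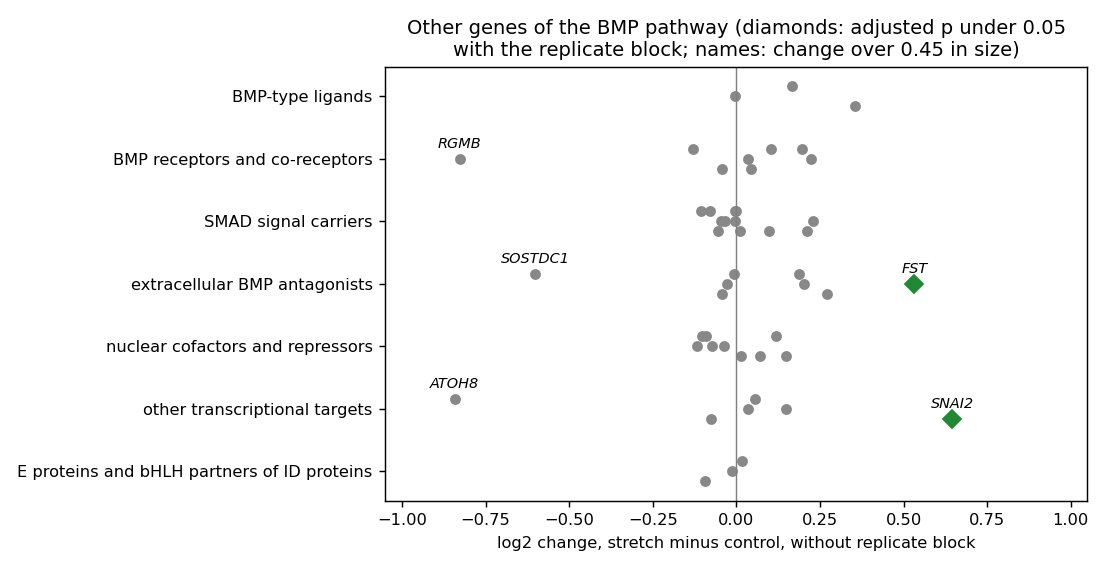
Log2 change from control to stretch, without the replicate block, for the 49 tested genes of the 7 pathway lists, 1 point per gene. Most points lie near 0; FST and SNAI2 (green diamonds, past an adjusted p of 0.05 with the replicate block) lie at 0.53 and 0.65, and RGMB and ATOH8 lie at -0.83 and -0.84.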

How the data were processed

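Values were raw counts of reads over exons per gene, deposited by the authors as 1 table of 8 wells; library preparation was strand-specific and polyA-selected per the labels. FastQC 0.11.8, Trim Galore 0.6.5, STAR 2.7.3a, Subread and featureCounts are named in the submitters' processing notes. The strand setting and the rule for multi-mapping reads are not given in the sources used here. The table names no build, but 37291 of its 37952 symbols matched the RefSeq table of the dog assembly UU_Cfam_GSD_1.0, all 37291 at identical positions. Columns belonging to no sample numbered 0.

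Counts were tested in R 4.3.3 with edgeR 4.0.16 (TMM factors, filterByExpr with a minimum count of 10 and total of 15, robust glmQLFit, two-sided glmQLFTest) over all 14571 genes, with Benjamini-Hochberg adjustment and a threshold of 0.05. Standard errors and approximate 95% intervals were derived from the F statistics. CPM were scaled with the TMM factors; log2 CPM used a prior count of 2. Scripts were tested on simulated counts. Alternatives used DESeq2 1.42.0, limma 3.58.1 (voom), other scaling and filters, blocks, subsets and single-well omissions.

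Both groups carry replicate numbers 1 to 4. Deviations of same-numbered wells from their group means correlated at 0.108 to 0.328 across genes, above 0.1 for every number. The numbers were taken as pairs by this rule, from the data and not from the labels. The rule cannot show pairing, because same-numbered wells always share a set of replicates and wells divide along those sets. Only 1 of the 4 control wells correlated best with the stretch well of its own number. The calls of FST and SNAI2 with the replicate block rest on these assumed pairs. Neither gene passed in edgeR when the block separated only the sets. Wells of 1 group differed by 5.56 to 26.8 chi-square units per degree of freedom, so none was counted as a copy of another.

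The 8 genes and the pathway lists were chosen with earlier results of these data known. The text names all 8 genes, each list gene past the threshold with or without the replicate block, the 3 list genes with the smallest p per list and the 2 most alike genes per member; other genes were named after their values were seen. The planned search of promoters was not run, as no sequences were used here. No member fell below the count filter, so the planned permutation test for such genes was not needed. Plots and permutation tests used Python 3.11.15 and matplotlib 3.10.9. A marker gene of the planned epithelial list is not reported here.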

Additional observations from a re-analysis of the deposited data

Results flagged for a closer look

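In 3 of 58 groups of 4 wells, 1 well lay far from the other three by Dixon's ratio of gap to range. About 1 in 20 groups would do so by chance. ID3 in control replicate 2 measured 16.1 CPM, against 17.1 to 17.2 CPM in the other control wells. ID4 in stretch replicate 2 measured 3.29 CPM, against 2.74 to 2.78 CPM. SMAD6 in stretch replicate 3 measured 23.5 CPM, against 18.9 to 19.6 CPM.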

How the results depend on the processing

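None of the 8 genes passed an adjusted p of 0.05 in the 28 alternatives, although DESeq2 with the replicate block gave none for ID4 and BAMBI. The closest was BAMBI without stretch replicate 3 and with the replicate block (edgeR, adjusted p = 0.0555). ID2, SMAD6, SMAD9 and BMP4 stayed positive and ID4 negative in all 28, but their sizes moved. The log2 change ran from 0.080 to 0.20 for ID2, from 0.12 to 0.28 for SMAD6 and from 0.016 to 0.17 for SMAD9. For BMP4 it ran from 0.072 to 0.32 and for ID4 from -0.40 to -0.077. ID1 turned to 0.040 and ID3 to 0.055 in replicates 1 and 2 only, and BAMBI to -0.12 in replicates 3 and 4 only. Over single-well omissions without the block, ID1 ran from -0.15 to 0.081; with the block it ran from -0.23 to 0.072 and was 0.068 without control replicate 4. BAMBI ran, with the block, from -0.0027 to 0.54. Of the 49 pathway genes, 0 passed without a block, 1 with DESeq2, 1 in replicates 1 and 2 only, 2 with the replicate block in edgeR, and 2 in each of DESeq2 and limma-voom with that block, both added after seeing the data. Over single-well omissions the number ran from 0 to 6. In edgeR on all 8 wells, the replicate block changed the calls of FST and SNAI2 among the pathway genes. Over all genes, 0 passed in edgeR without the block, 102 with the replicate block, 58 with the block of 2 levels and 40 in DESeq2. Levels per kilobase in control wells moved by less than 1 SD under either other scaling. ID4 and BAMBI have the fewest counts and the widest intervals with ID1.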

Other observations

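The balance within the ID family was described from the levels per kilobase summed over ID1 to ID4. ID2 supplied 71.0 ± 1.59% of the sum in control wells and 74.7 ± 4.03% in stretch wells (SD, n = 4 each). ID3 supplied 19.4 ± 1.03% and 16.8 ± 2.58%, ID1 8.64 ± 1.49% and 7.80 ± 1.54%, and ID4 0.944 ± 0.228% and 0.755 ± 0.0713%. The sum itself was 179 ± 7.87 in control and 188 ± 17.2 in stretch wells, in normalised CPM per kilobase (two-sided exact permutation p = 0.4; the smallest possible with 4 against 4 wells is 0.0286).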
